A study of Mus musculus with 14 samples.

Results

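This set holds 92 genes whose mRNA was higher in FAK KO ovarian cancer cells once FAK was put back, whether the returned FAK had kinase activity or not. They were picked by a rule on FPKM (fragments per kilobase of gene, scaled to the size of the library), the unit of the deposited table: a protein-coding gene with a mean above 1 FPKM in each re-expressing line (FAK-WT as well as FAK-R454), a mean at least 2 times that of FAK KO cells in both, and a FAK-WT mean no more than 1.5 times the FAK-R454 mean, with 0.1 FPKM added before each ratio. Of all 35275 genes measured, 22026 are protein-coding, and 10714 of these were above 1 FPKM in both re-expressing lines. In 123 genes both lines reached 2 times FAK KO, and 31 of them were left out because FAK-WT was more than 1.5 times FAK-R454. Because these 3 lines chose the genes, differences among them are described below with no test, and tests are given only for comparisons with other lines.

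All cells are KMF cells or come from them. KMF is a C57Bl6 mouse ovarian cancer line derived from ID8 cells passaged in mice, and its RNA samples were described as taken at various passages. FAK KO is clone KT13 of KMF, a single clone with CRISPR/Cas9 edits in exon 4 of Ptk2, the gene for FAK. FAK-WT and FAK-R454 are KT13 cells with lentiviral GFP-FAK, either normal or with the R454 change that removes kinase activity. β-catenin ΔGSK is KT13 with a retroviral, active β-catenin that escapes GSK3, with GFP expressed separately and no FAK put back. All were grown for 5 days as tumorspheres, which are floating clusters, in PromoCell XF medium. There were 3 samples of each line and 2 of FAK-R454, labelled as independent RNA samples, although the study's methods call those of the KT13 lines replicates and describe another FAK-R454 sample, which was not analysed here; p-values therefore measure the spread between samples of 1 line for each genotype. FAK-WT and FAK-R454 cells share the GFP tag, the lentiviral vector and the drug selection and cell sorting that followed infection, steps that FAK KO cells did not go through after cloning, so that FAK and these steps cannot be told apart here. β-catenin ΔGSK cells also went through infection, drug selection and sorting after cloning. In their comparison with FAK KO cells, β-catenin and these steps cannot be told apart. Likewise, KMF cells differ from the KT13 lines both in FAK and in not being the KT13 clone, and these cannot be told apart either.

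FAK is a cytoplasmic tyrosine kinase that gathers at integrin adhesions, where cells hold the extracellular matrix. Besides phosphorylating partners it is a scaffold, which binds adaptor and signalling proteins through regions outside the kinase domain, and it can enter the nucleus. A kinase-inactive FAK can keep the scaffold role. In ovarian tumours, cells spread as floating clusters in ascites and meet matrix made of collagens and fibronectin on the peritoneal lining.

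Between 25390558 and 35289859 fragments per sample, with a median of 28720224, were counted on genes. The ovarian label was checked with 13 ovarian surface and mesothelial markers, which summed to between 1268 and 1997 FPKM over the 14 samples. Most of this came from Krt8, Krt18, Krt19, Bcam, Wt1 and Msln, while Krt7, Muc16, Cdh1 and Epcam were below 1 FPKM on average in each line. The pan-leukocyte marker Ptprc and the T cell marker Cd3e were listed at 0 in the knockout and both re-expressing lines. Summed leukocyte markers, mostly Cd14 and Cd68, were 7.24 to 7.87 FPKM in FAK KO, 11.97 to 17.4 in FAK-WT, 9.11 to 10.04 in FAK-R454, 8.32 to 8.78 in KMF and 4.60 to 5.72 in β-catenin ΔGSK samples. Summed fibroblast markers, mostly Dcn, were 90.01 to 127 FPKM in FAK KO, 123 to 145 in FAK-WT, 122 to 132 in FAK-R454, 41.8 to 49.9 in KMF and 30.8 to 45.1 in β-catenin ΔGSK samples. Endothelial markers, mostly Tek and Esam, summed to 54.4 to 56.0 FPKM in KMF and 32.0 to 33.6 in FAK KO samples. They summed to 35.9 to 38.7 in FAK-WT, 35.1 to 37.6 in FAK-R454 and 65.5 to 71.2 in β-catenin ΔGSK samples. Mean Tek was 28.7 in KMF and 6.75 in β-catenin ΔGSK cells, and mean Esam was 25.2 and 61.8. The part of all these markers in the changes below was not tested. Of the 9 fibroblast markers Col1a1 and Pdgfra are themselves in the set, and Col1a2, Fap, Lum, Postn, Pdgfrb and Thy1 stayed below 0.1 FPKM on average in each line. In bulk RNA, fewer cells of a type and less RNA per cell cannot be told apart. FAK-WT sample 3 stood apart. In it 25 of the 92 genes exceeded 1.5 times the mean of the other FAK-WT samples and 6 fell below that by the same factor, against 1 and 12 in FAK-WT sample 1 and 2 and 6 in FAK-WT sample 2. Over genes above 1 FPKM the share past that factor was 3.90% in sample 3 and 1.60% and 0.756% in the others.

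Ptk2, at chr15:73205105-73423191 (GRCm38, the coordinates of the table), is itself one of the 92. It measured 24.8, 24.2 and 23.9 FPKM in KMF, 20.5, 17.6 and 18.9 in FAK KO, 42.3, 42.5 and 45.4 in FAK-WT, 59.2 and 65.5 in FAK-R454, and 15.4, 15.9 and 15.1 in β-catenin ΔGSK cells. The FAK KO and KMF samples did not overlap, and the mRNA remained in the knockout, where the edits are insertions or deletions in 1 exon and the counting covers the entire gene. The values also count the introduced GFP-FAK, and the 2 sources cannot be told apart in the table. The Ptk2 mRNA of FAK-WT cells was 0.696 times that of FAK-R454 cells, with no overlap between samples, so the re-expressing lines were not matched in the level of FAK mRNA. For the protein, the paper reports equal expression of both GFP-FAK forms by immunoblotting.

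**Figure D1:**
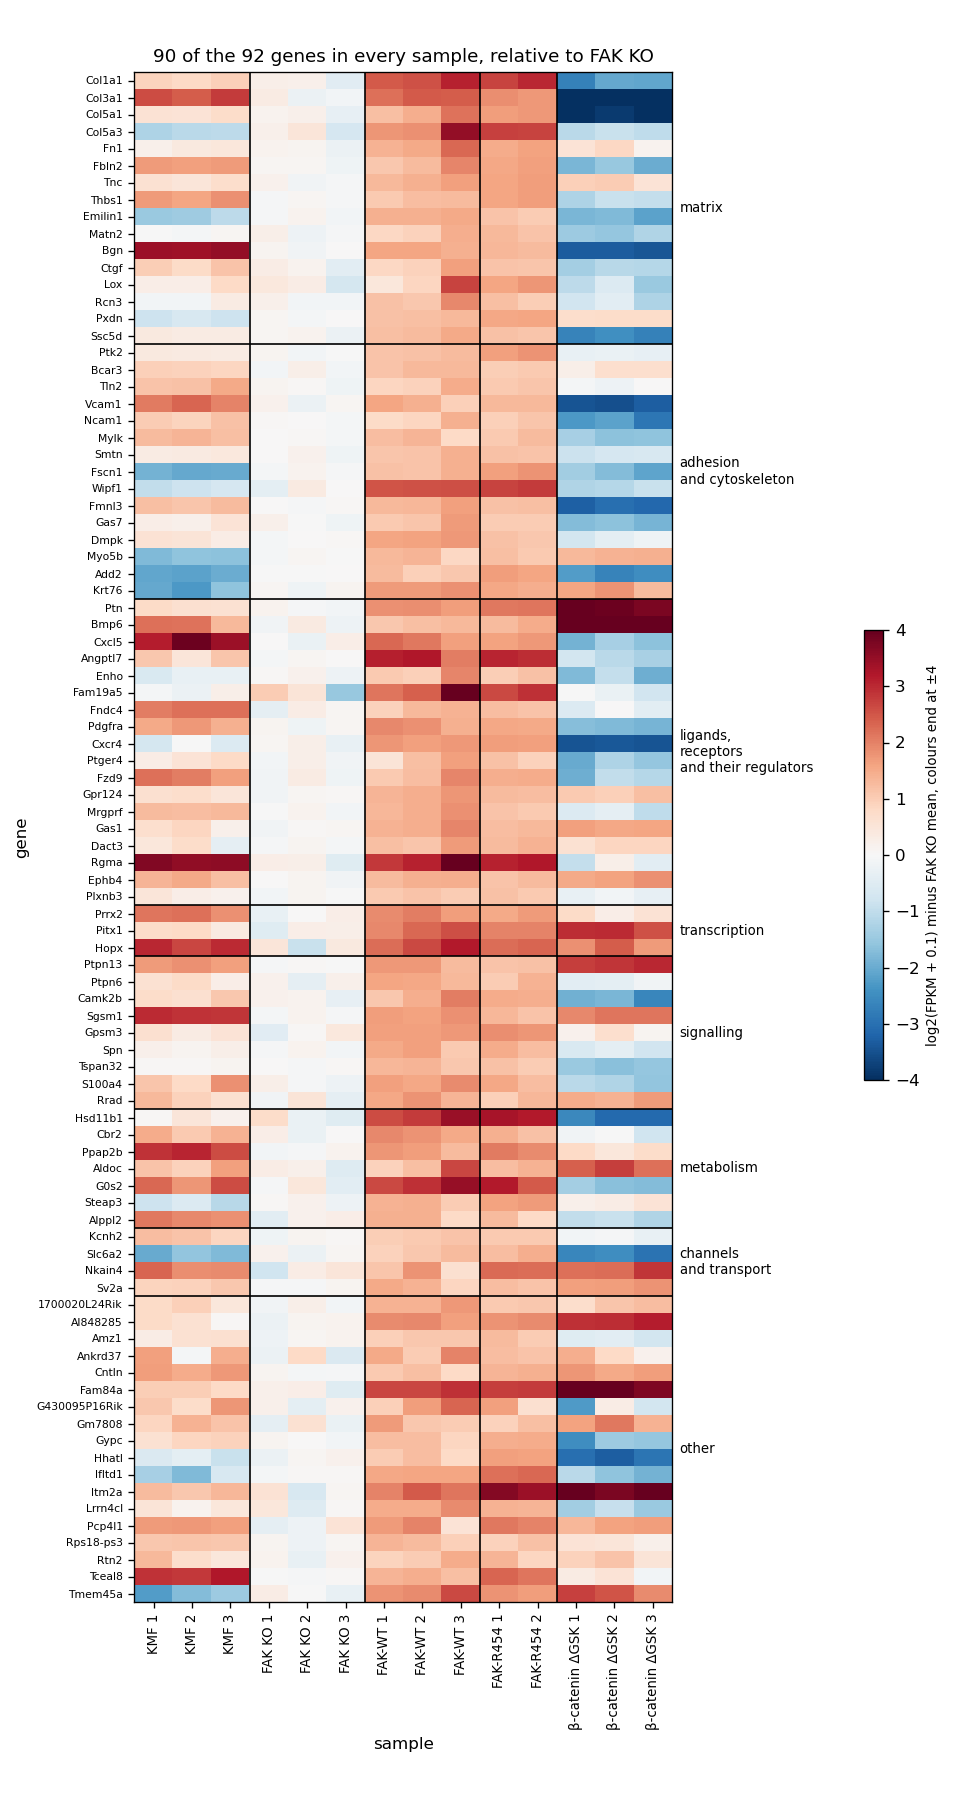
Each row is 1 of 90 of the 92 genes, ordered by role, and each column 1 sample; colour gives log2(FPKM + 0.1) minus the mean of the FAK KO samples, with red above and blue below. The FAK-WT and FAK-R454 columns are red by the rule, and the KMF columns are mixed. The β-catenin ΔGSK columns hold both the deepest blue (Col3a1, Col5a1) and the deepest red (Bmp6), with Ptn and Fam84a also strongly red.

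In every one of the 92 genes all FAK-WT and all FAK-R454 samples lay above all FAK KO samples, where 20.8% of the genes tested for FAK-WT and 25.4% of those tested for FAK-R454 did so. The rule used the means of these samples, so nothing is read from it. The ratio of means had a median log2 of 1.46 in FAK-WT cells (1.01 to 3.36) and 1.36 in FAK-R454 cells (1.01 to 3.46). FAK-WT exceeded FAK-R454 by mean in 57 genes and fell below it in 35, with a median ratio of 1.04. The rule set an upper limit of 1.5 on this ratio and no lower one, and the genes farthest toward FAK-R454 were Itm2a (ratio 0.398), Nkain4 (0.505), Tceal8 (0.536) and Ifltd1 (0.619). Itm2a, a membrane protein gene, rose from 0.590, 0.198 and 0.389 FPKM in FAK KO to 1.75, 2.46 and 1.97 in FAK-WT and 5.82 and 4.83 in FAK-R454 samples. The members nearest the limits were Hhatl, at 2.01 times FAK KO in FAK-WT, and Bcar3, at 2.01 times in FAK-R454, while Fhl3 (2.00, just below the limit) and Dnajc22 (2.00, just below it) were left out. For the ratio of the re-expressing lines, Col3a1 was inside at 1.49 and Camkk1 outside at 1.51. For the 1 FPKM limit Amz1 was inside at 1.01 in FAK-WT cells and Prr7 outside at 0.995, and in FAK-R454 cells G430095P16Rik was inside at 1.03 and Spns3 outside at 0.986.

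The largest rises common to both lines were those of Rgma, Hsd11b1, G0s2 and Angptl7. Rgma encodes a GPI-anchored guidance protein that binds neogenin and acts as a co-receptor for BMPs. Its mRNA was 0.648, 0.631 and 0.349 FPKM in FAK KO, 4.36, 5.13 and 10.01 in FAK-WT and 5.21 and 5.71 in FAK-R454 cells, against 8.02, 7.23 and 7.45 in KMF and 0.226, 0.637 and 0.370 in β-catenin ΔGSK cells. The β-catenin ΔGSK samples overlapped those of FAK KO, and the KMF samples lay within the FAK-WT range. Hsd11b1, the enzyme that regenerates active glucocorticoid, and G0s2, an inhibitor of triglyceride breakdown, are neighbours on chromosome 1, 8.11 kb apart with no protein-coding gene of the table between them. Hsd11b1 rose from 1.36, 0.630 and 0.519 FPKM in FAK KO to 5.25, 5.93 and 9.37 in FAK-WT and 8.44 and 7.70 in FAK-R454 samples. G0s2 rose from 0.355, 0.547 and 0.255 FPKM to 2.83, 3.50 and 5.18 in FAK-WT and 4.11 and 2.47 in FAK-R454 samples. The neighbours differed in KMF cells, where Hsd11b1 stood at 0.804, 1.11 and 0.877 FPKM, within the FAK KO range, while G0s2 stood at 2.21, 1.49 and 2.76, above it. Angptl7, a secreted angiopoietin-like protein, went from 1.27 ± 0.0762 FPKM (SD, n = 3) to 9.91 ± 3.78 (SD, n = 3) and 10.9 ± 0.439 (SD, n = 2).

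Genes of the extracellular matrix made up 16 of the 92. Among them are 4 of the 44 collagen genes listed, the fibrillar Col1a1, Col3a1, Col5a1 and Col5a3. Col1a1, the major chain of type I collagen, was 1.53, 1.51 and 0.928 FPKM in FAK KO, 7.57, 8.03 and 11.8 in FAK-WT and 9.04 and 11.2 in FAK-R454 samples. Its partner chain Col1a2 was at 0.00223 FPKM in FAK KO and 0.00838 and 0.00673 in the re-expressing lines, so of the chains of type I collagen only Col1a1 was above 0.1 FPKM. Col3a1 rose from 9.12, 6.16 and 6.68 to 33.4, 40.0 and 39.4 in FAK-WT and 26.3 and 24.1 FPKM in FAK-R454 samples, which did not overlap each other. Col5a1, which sets the width of collagen fibrils, rose from 6.91, 7.19 and 4.91 to 14.5, 17.2 and 28.5 and to 20.3 and 21.3 FPKM. Col5a3 was 0.168, 0.226 and 0.0467 in FAK KO and 0.701, 0.731 and 2.58 FPKM in FAK-WT samples, so the mean in FAK-WT depends on sample 3, but it was 1.46 and 1.41 in FAK-R454 samples.

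The set holds 8 of 82 listed matrix glycoproteins and proteoglycans, of which fibronectin (Fn1), the ligand of several integrins, had the highest mean in FAK-WT cells. It was 60.7, 59.1 and 47.3 FPKM in FAK KO, 147, 158 and 270 in FAK-WT and 155 and 170 in FAK-R454 samples, against 64.2, 72.8 and 75.03 in KMF. Fibulin-2 (Fbln2), which binds fibronectin and basement membrane, went from 58.1 ± 5.97 FPKM to 162 ± 54.9 in FAK-WT (SD, n = 3 each) and 175 ± 5.79 in FAK-R454 (SD, n = 2). The others were Bgn (biglycan), Tnc (tenascin C) and Thbs1 (thrombospondin 1), both of which modulate adhesion, the elastic fibre protein Emilin1, Matn2 and the matricellular protein Ctgf. Their means were 1.09 to 1.52 higher on the log2 scale in FAK-WT and 1.09 to 1.63 in FAK-R454 cells. Lox, which crosslinks collagen, Pxdn, which crosslinks collagen IV, and Rcn3, a chaperone of the secretory pathway, stand for the 63 enzymes and inhibitors listed. Lox was 3.52, 4.71 and 17.2 FPKM in FAK-WT samples, the first of which lay only just above the 3.40 of a FAK KO sample.

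Adhesion and cytoskeletal genes numbered 15. Besides Ptk2 they include Bcar3, an adaptor that binds p130Cas, and Tln2, a talin that links integrins to actin. Tln2 rose from 2.98, 2.90 and 2.47 FPKM in FAK KO to 5.16, 5.30 and 7.94 in FAK-WT and 5.86 and 6.06 in FAK-R454 samples. The FAK, integrin and focal adhesion list has 64 genes in the table, of which these 3 are in the set. Of the 10714 protein-coding genes above 1 FPKM in both re-expressing lines 92 are in the set. The shares of this and the other lists in the set were not tested. Vcam1, an immunoglobulin-family adhesion receptor for leukocyte integrins, rose from 2.57, 1.90 and 2.37 FPKM to 6.92, 6.16 and 4.52 and to 5.64 and 5.66. Ncam1, a homophilic adhesion molecule, about matched KMF by mean after re-expression, with a KMF mean of 33.9 FPKM against 34.6 in FAK-WT and 34.0 in FAK-R454, and a knockout mean of 16.7. Its FAK-WT samples were 28.5, 30.4 and 44.9 against 33.4, 31.0 and 37.3 in KMF, so the FAK-WT mean depends on sample 3. Without that sample Ncam1 did not meet the rule.

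Among 71 actin and contractility genes 9 were members. Fscn1, the bundler of filopodial actin, was 3.48, 4.10 and 3.54 FPKM in FAK KO, 8.498, 8.30 and 9.97 in FAK-WT and 11.6 and 13.1 in FAK-R454 samples. Wipf1, a partner of WASP proteins in actin branching, was 0.141, 0.308 and 0.219 in FAK KO and between 1.69 and 2.08 FPKM in the 5 re-expressing samples. Fmnl3, a formin that builds actin filaments, rose from 12.4 ± 0.446 to 33.6 ± 4.82 (SD, n = 3 each) and 28.4 ± 0.638 FPKM (SD, n = 2). Smtn, Mylk, the kinase of myosin light chain, Dmpk, Gas7, Add2 and the vesicle motor Myo5b complete the list, with log2 ratios of 1.10 to 1.65 in FAK-WT and 1.01 to 1.62 in FAK-R454 cells.

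Ligands, receptors and their regulators formed the largest role, with 19 genes. The ligands were Ptn (pleiotrophin, a heparin-binding growth factor), Bmp6, the chemokine Cxcl5 and the secreted Angptl7, Enho, Fam19a5 and Fndc4. The receptors were Pdgfra, the chemokine receptor Cxcr4, the prostaglandin receptor Ptger4, the Wnt receptor Fzd9 and the Wnt co-receptor Gpr124, with Ephb4 and Plxnb3 of the axon guidance list. Pdgfra rose from 3.25, 2.65 and 3.18 FPKM in FAK KO to 11.7, 10.9 and 8.19 in FAK-WT and 8.91 and 8.84 in FAK-R454 samples. Cxcr4 rose from 1.49, 1.68 and 1.13 to 5.00, 4.60 and 4.90 and to 4.75 and 4.60 FPKM, with overlapping re-expressing lines. Fam19a5 varied widely between samples, at 1.73, 1.19 and 0.222 FPKM in FAK KO and 3.96, 4.66 and 17.5 in FAK-WT samples.

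Of the remaining genes, 3 encode transcriptional regulators, the paired-type homeobox genes Prrx2 and Pitx1 and the homeodomain-only Hopx. Pitx1 was 1.07, 1.86 and 1.81 FPKM in FAK KO, 6.14, 7.86 and 9.61 in FAK-WT and 6.35 and 6.31 in FAK-R454 samples. Hopx was 0.553, 0.152 and 0.510 in FAK KO and between 2.07 and 4.12 FPKM in the re-expressing samples. Genes best known from leukocytes were also present: Spn (CD43), the phosphatase Ptpn6 (SHP-1), Gpsm3 and the tetraspanin Tspan32. Tspan32 was the only one of them above 3 FPKM, at 10.8, 10.2 and 10.9 in FAK KO, 26.9, 27.7 and 22.6 in FAK-WT and 24.4 and 21.7 in FAK-R454 samples, and it was 11.1, 10.9 and 11.4 in KMF. S100a4, a calcium-binding protein tied to cell motility, had one of the highest levels, from 26.3 ± 4.20 to 85.5 ± 10.8 (SD, n = 3 each) and 69.3 ± 10.01 FPKM (SD, n = 2). Among channels and transporters Kcnh2, the hERG potassium channel, rose from 24.1 ± 2.40 to 50.4 ± 2.79 in FAK-WT (SD, n = 3 each) and 49.5 ± 0.169 FPKM in FAK-R454 cells (SD, n = 2). Rps18-ps3 and Gm7808 are listed as protein-coding but are short genes, and Rps18-ps3 resembles a ribosomal protein gene, so reads could be shared with a near copy and their values are uncertain.

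The set was then compared in lines that the rule did not use. In β-catenin ΔGSK against KMF cells, collagens, biglycan, Vcam1 and most other matrix genes of the set were lower, and a smaller group with Ptn and Bmp6 was higher. This was tested with limma on log2(FPKM + 0.1) over 11902 genes with a mean above 1 FPKM in either line, and a gene was called when its adjusted p was under 0.05, its log2 change at least 1 in size and its mean above 1 FPKM in the higher line. Of the 92 genes 80 were tested, 40 were called lower and 14 higher, while 7.17% of all genes tested were called lower and 5.96% higher. The median log2 change was -0.99 over the 80 and -0.05 over all genes tested. The other 12 genes were at or below 1 FPKM in both lines. A low level in FAK KO cells was a condition of the rule, and β-catenin ΔGSK cells come from that clone, so the lower values can also carry the difference between KMF and the KT13 clone.

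Bgn encodes biglycan, a small proteoglycan that binds collagen and TGF-β, and had the widest range of the set in FPKM. It measured 525, 509 and 557 FPKM in KMF, 53.2, 44.8 and 49.1 in FAK KO, 145, 145 and 132 in FAK-WT, 123 and 117 in FAK-R454 and 4.73, 4.83 and 4.45 in β-catenin ΔGSK samples. No group overlapped another. The change from KMF to β-catenin ΔGSK was -6.80 on the log2 scale (SE 0.07, limma adjusted p = 1.32e-10). Col3a1, at 44.5, 39.0 and 51.0 in KMF, was 0.247, 0.290 and 0.293 FPKM in β-catenin ΔGSK samples, a log2 change of -6.89 (SE 0.12, adjusted p = 2.41e-09). Col5a1 went from 9.46, 9.20 and 10.4 to 0.235, 0.347 and 0.186 FPKM (-4.81, SE 0.17, adjusted p = 9.49e-08), and Col1a1 from 2.501, 2.30 and 2.58 to 0.113, 0.239 and 0.229 (-3.15, SE 0.21, adjusted p = 3.71e-06). In these 4 genes the β-catenin ΔGSK samples were below those of FAK KO as well. The sizes for Col3a1 and Col5a1 depend on the added 0.1: with 1 added they were -5.16 and -3.09. The fourth collagen, Col5a3, was too low in both lines to be tested.

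The start regions of Col3a1, Bgn and Col5a1 are shown because these matrix genes fell furthest in that line with 0.1 FPKM added to each value. They are windows of 300 bases, from 250 before to 50 after the start, read from RefSeq on GRCm38.p6 and printed 5′ to 3′ on the strand of the gene, at chr1:45311288-45311587 (Col3a1, plus strand), chrX:73483351-73483650 (Bgn, plus), chr2:27886175-27886474 (Col5a1, plus) and chr6:36810130-36810429 (Ptn, minus). Ptn stands beside them as the gene of the fixed lists with the largest rise there, and its RefSeq start lies 1182 bases from the one in the table, while for the others the starts differ by at most 1 base. Capitals mark a TATA box (TATAAA) and a TEAD motif (GGAATG, here on the other strand as CATTCC) in Col3a1 and GC boxes (GGGCGG or its reverse complement CCGCCC) in Bgn and Col5a1.
Col3a1: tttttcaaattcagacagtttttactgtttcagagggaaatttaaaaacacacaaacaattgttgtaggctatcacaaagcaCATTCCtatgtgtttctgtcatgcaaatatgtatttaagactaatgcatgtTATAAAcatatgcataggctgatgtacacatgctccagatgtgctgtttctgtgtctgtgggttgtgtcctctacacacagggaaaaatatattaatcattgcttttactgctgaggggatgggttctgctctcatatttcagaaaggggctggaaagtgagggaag
Bgn: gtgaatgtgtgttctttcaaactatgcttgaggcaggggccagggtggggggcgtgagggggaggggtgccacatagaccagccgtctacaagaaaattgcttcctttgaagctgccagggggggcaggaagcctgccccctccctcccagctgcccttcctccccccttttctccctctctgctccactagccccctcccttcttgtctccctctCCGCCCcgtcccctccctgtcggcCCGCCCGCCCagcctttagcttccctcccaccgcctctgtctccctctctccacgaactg
Col5a1: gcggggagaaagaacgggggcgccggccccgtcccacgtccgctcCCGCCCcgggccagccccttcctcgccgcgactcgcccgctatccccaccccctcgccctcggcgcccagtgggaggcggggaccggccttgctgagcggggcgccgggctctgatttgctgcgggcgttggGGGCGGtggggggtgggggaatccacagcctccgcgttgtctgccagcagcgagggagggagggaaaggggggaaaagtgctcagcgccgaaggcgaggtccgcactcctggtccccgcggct
Ptn: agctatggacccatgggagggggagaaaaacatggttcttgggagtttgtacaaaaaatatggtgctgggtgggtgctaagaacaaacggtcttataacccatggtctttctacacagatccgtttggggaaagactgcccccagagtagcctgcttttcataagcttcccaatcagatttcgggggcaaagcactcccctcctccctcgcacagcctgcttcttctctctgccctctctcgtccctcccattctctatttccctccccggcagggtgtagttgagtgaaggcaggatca
Counted from the start, the TATA box of Col3a1 begins at -117 and its TEAD motif at -168, with no GC box, Bgn holds 3 GC boxes and Col5a1 2, and Ptn holds none of the motifs searched. No motif of this search was common to the windows of Col3a1, Bgn and Col5a1. Of the 92 genes 63 had a promoter in the RefSeq table, and in 16 of these its start lay more than 100 bases from the start in the expression table, by up to 179 kb (179.4). With both strands searched, TEAD motifs were found in 13 of them (20.6%), against 11.5% of 8611 promoters of that length from genes past the 1 FPKM limit, TATA boxes in 9 (14.3% against 6.52%), the SRF motif known as the CArG box in 3 (4.76% against 1.24%), AP-1 motifs (TGANTCA) in 3 (4.76% against 4.53%) and GC boxes in 38 (60.3% against 68.4%). E-boxes (CACGTG) were in 4 (6.35% against 10.5%). The letters of a TCF/LEF motif (CTTTGAT) or an NF-kB motif (GGGANTTCC) were in none of the 63, against 2.42% and 2.53% of all. The median number of CpG pairs per window was 11 in the set and 22 over all, at the same median GC content of 61.7%. Over the 47 members with a nearby start, a count added after the data were seen, TEAD motifs were in 9 (19.1% against 11.2% of 6905) and TATA boxes in 9 (19.1% against 6.503%), and the median number of CpG pairs was 12 against 22. These are counts of letters at any position in the window, not of binding or of working promoter elements.

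**Figure D2:**
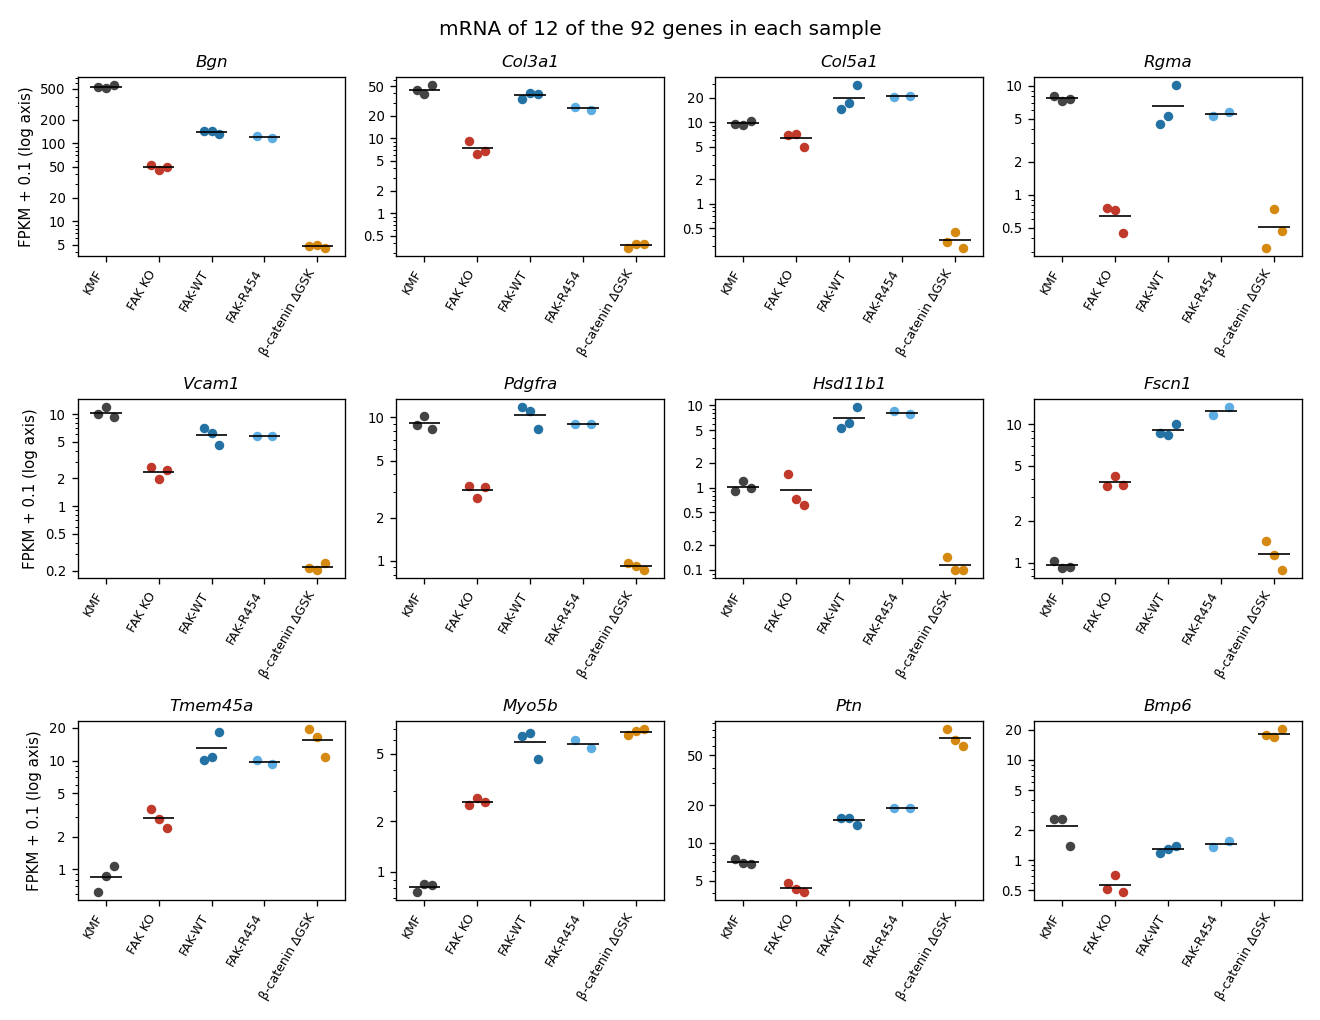
Each panel is 1 gene, with a point for each sample and a line at the mean of its group, as FPKM + 0.1 on a log axis. Bgn, Col3a1, Col5a1, Vcam1 and Pdgfra have their lowest samples in β-catenin ΔGSK cells and Ptn and Bmp6 their highest, while Tmem45a and Myo5b are lowest in KMF cells and Fscn1 is low in KMF and β-catenin ΔGSK cells alike.

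Some cell-surface and secreted genes were lower as well. Vcam1 was 9.84, 11.7 and 9.22 FPKM in KMF and 0.114, 0.104 and 0.140 in β-catenin ΔGSK samples (log2 change -5.56, SE 0.15, adjusted p = 2.07e-08). Cxcl5, a chemokine for neutrophils, was 3.18, 5.58 and 3.90 in KMF and at 0, 0.0476 and 0.0205 FPKM (-5.12, SE 0.25, adjusted p = 5.68e-07). For genes this near 0 the added 0.1 sets the size: with 1 added, Cxcl5 changed by -2.33 and Vcam1 by -3.32, and with limma-voom by -7.27 and -6.36. Rgma changed by -3.99, Ncam1 by -3.45, Fzd9 by -3.33, Pdgfra by -3.32 and Cxcr4 by -3.02. Mean FPKM in KMF, FAK KO and β-catenin ΔGSK cells was 7.57, 0.543 and 0.411 for Rgma and 3.78, 0.894 and 0.297 for Fzd9. For Ncam1 it was 33.9, 16.7 and 3.07, for Pdgfra 9.06, 3.03 and 0.815, and for Cxcr4 1.06, 1.43 and 0.0401. Rgma was thus already near its β-catenin ΔGSK level in FAK KO cells, while Cxcr4 was not. In the cytoskeleton Fmnl3 was 28.7, 27.1 and 29.8 in KMF and 1.19, 1.43 and 1.33 FPKM in β-catenin ΔGSK samples (-4.34, SE 0.09, adjusted p = 5.92e-09). Mylk, Gas7 and Smtn changed by -2.80, -2.07 and -1.08. By role, 10 of 15 matrix genes tested were called lower and 1 higher, 7 and 2 of 13 adhesion and cytoskeletal genes, and 10 and 3 of 17 ligand and receptor genes, against 7.17% lower and 5.96% higher over all genes. These roles were assigned with the values known. Fn1, Tnc, Emilin1 and Rcn3 were the matrix genes tested and not called, and Pxdn was called higher. Fn1 was 64.2, 72.8 and 75.03 FPKM in KMF and 80.3, 97.8 and 61.6 in β-catenin ΔGSK samples, which overlapped. Among listed genes outside the set, the collagens had 6 lower and 3 higher of 17 tested, the glycoproteins and proteoglycans 10 and 6 of 34, the growth factors, chemokines and their receptors 12 and 6 of 42, the actin genes 6 and 8 of 52 and the FAK, integrin and focal adhesion genes 6 and 3 of 44, beside the same 7.17% and 5.96%.

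The 14 genes called higher in β-catenin ΔGSK than KMF cells included ligands and a motor. Bmp6, a ligand of the TGF-β family, measured 2.48, 2.45 and 1.28 in KMF and 17.5, 17.0 and 20.1 FPKM in β-catenin ΔGSK samples (log2 change 3.13, SE 0.22, adjusted p = 4.74e-06). Ptn measured 7.34, 6.79 and 6.63 and then 80.7, 65.8 and 59.5 FPKM (3.28, SE 0.11, adjusted p = 7.27e-08). In both genes the β-catenin ΔGSK samples were above those of all other lines. Tmem45a (4.18), Krt76 (3.53), Fam84a (3.05), Myo5b (3.05), Itm2a (2.74), AI848285 (2.53) and Pitx1 (2.21) followed, then Pxdn, Aldoc, Steap3, Ptpn13 and Gas1 at 1.02 to 1.496. Krt76, a keratin of stratified epithelium, and Myo5b had their lowest samples in KMF. Myo5b was 0.663, 0.754 and 0.735 FPKM in KMF and 2.39, 2.64 and 2.4998 in FAK KO, 6.30, 6.53 and 4.54 in FAK-WT, 5.89 and 5.32 in FAK-R454 and 6.36, 6.72 and 6.88 in β-catenin ΔGSK samples. As a check on the line, 8 of 9 canonical Wnt targets tested, none of them in the set, were called higher than in KMF, with Axin2 at 110 FPKM against 5.88.

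**Figure D3:**
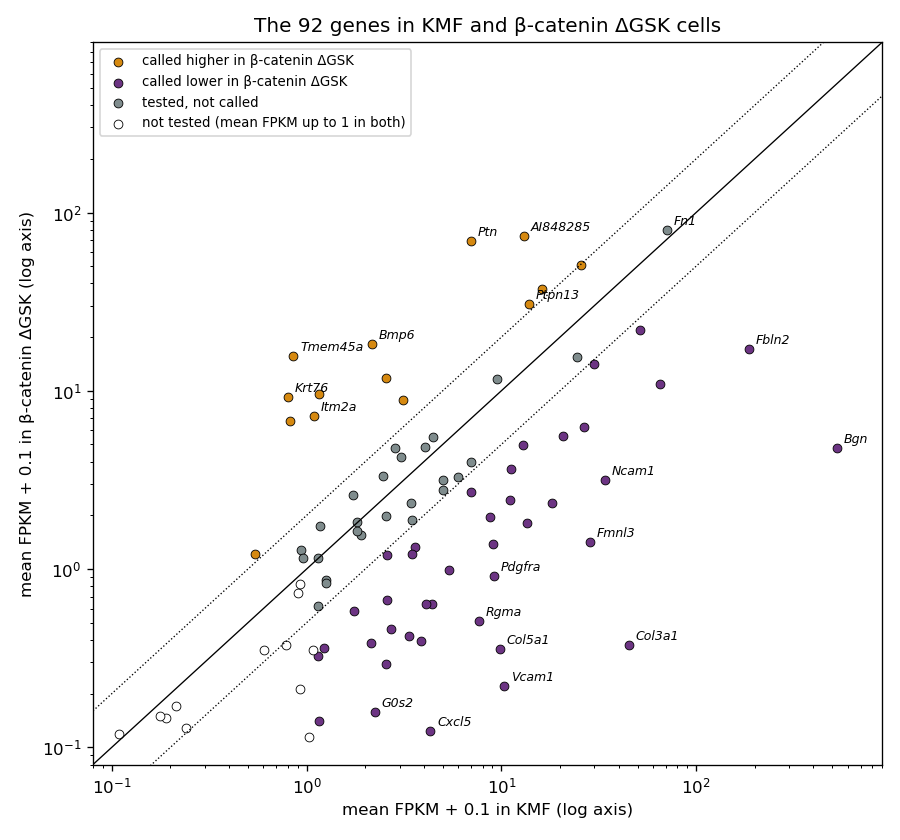
Each point is 1 of the 92 genes, at its mean FPKM + 0.1 in KMF cells and in β-catenin ΔGSK cells, both on log axes; the solid line marks equal levels and dotted lines 2-fold differences. The 40 genes called lower lie below the line of equal levels, with Bgn and Col3a1 farthest from it, and the 14 called higher lie above it.

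The remaining comparisons each share a line with the rule, so their counts are given as a description and nothing is read from their distance to the shares of all genes. KMF was first set against FAK KO. Of 78 genes tested 35 were called higher and 6 lower in KMF, where 3.97% and 4.04% of all genes were. At any fold 58 were higher, against 23.1% of all genes. The rule favours genes with low FAK KO values, which bears on both counts and on the sample counts given last. Among the larger differences were those of Rgma (log2 difference 3.61), Cxcl5 (3.49), Bgn (3.44), Tceal8 (2.97), Sgsm1 (2.92) and Hopx (2.89). The 6 lower genes included Krt76 (-1.99), Fscn1 (-1.98), Tmem45a (-1.81), Myo5b (-1.67) and Emilin1 (-1.32), so these were higher in the knockout clone than in KMF and higher again after re-expression. Fscn1, for one, was 0.926, 0.817 and 0.837 FPKM in KMF, below every sample of the knockout and the re-expressing lines. Emilin1 was 1.00, 1.07 and 1.40 in KMF, 2.93, 3.35 and 2.75 in FAK KO, and 8.27, 8.13 and 8.82 in FAK-WT samples. In 60 of the 78 genes tested all KMF samples were above all FAK KO samples and in 9 below, while 27.4% and 33.4% of all genes tested lay so.

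The re-expressing lines, chosen for high values, were set against KMF, which shares its samples with the comparisons above. FAK-WT cells were called higher than KMF in 35 of 92 genes and lower in 5, where 3.82% and 2.11% of all genes were. At any fold 10 were lower, against 23.5% of all genes. Without FAK-WT sample 3 the counts were 33 and 6. FAK-R454 cells were called higher in 37 and lower in 3, where 4.28% and 2.49% of all genes were, and at any fold 15 were lower against 21.2% of all genes. The genes lower in FAK-WT than KMF were Bgn (-1.91), Tceal8 (-1.62), Cxcl5 (-1.47), Ppap2b (-1.28) and Sgsm1 (-1.20), and in FAK-R454 they were Bgn (-2.15), Cxcl5 (-1.82) and Sgsm1 (-1.68). These stood between FAK KO and KMF. Among the genes called higher than KMF in both, Wipf1, Col5a3, Add2 and Fscn1 stood 3.17 to 3.48 above KMF in FAK-WT and 3.59 to 3.83 in FAK-R454 cells. Col5a3, at 0.00853 FPKM in KMF, stood 1.27 above KMF in FAK-R454 cells with 1 added and 7.34 with limma-voom, so the size of its difference rests on the added 0.1.

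β-catenin ΔGSK cells, the third line made from the KT13 clone, were compared with FAK KO cells in 71 genes. Of these 23 were called higher and 27 lower, where 5.13% and 6.99% of all genes were, and the rule's choice of low FAK KO values favours the first count. The genes that fell furthest were Col3a1 (-4.28), Col5a1 (-4.18), Cxcr4 (-3.43), Vcam1 (-3.43), Bgn (-3.36) and Fmnl3 (-3.14). Cxcr4 was 0.0390, 0.0436 and 0.0377 FPKM in β-catenin ΔGSK and 1.49, 1.68 and 1.13 in FAK KO samples. The genes that rose furthest were Bmp6 (5.02), Fam84a (3.98), Itm2a (3.96), Ptn (3.96), AI848285 (3.00) and Ptpn13 (2.89), a phosphatase of the cell cortex.

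**Figure D4:**
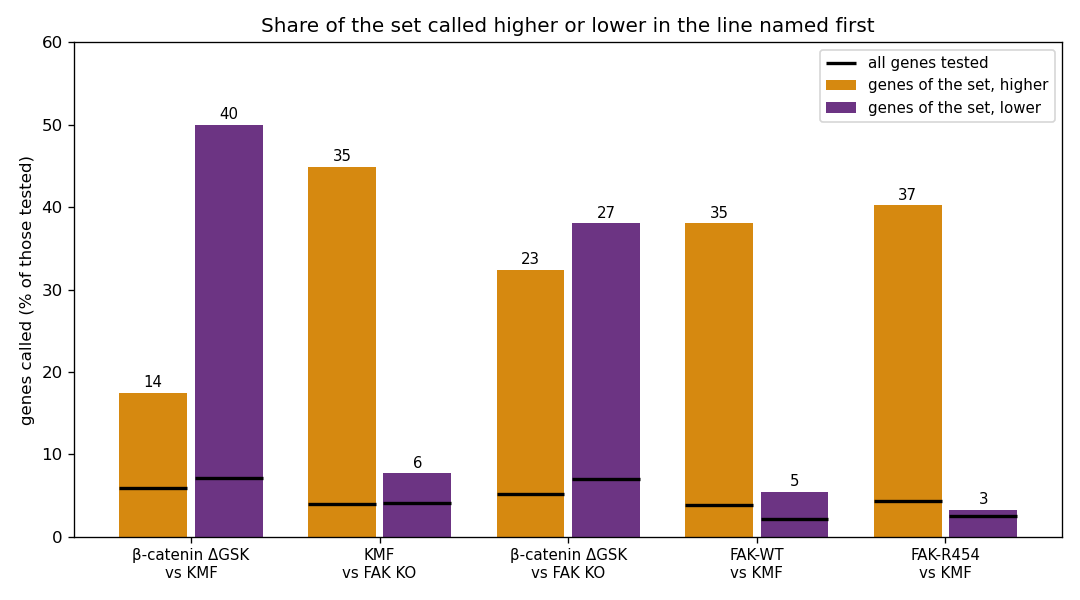
Bars give the percentage of the tested genes of the set that were called higher or lower in the line named first, with the number of genes above each bar, and black lines give the percentage of all genes tested. In β-catenin ΔGSK against KMF cells 40 genes were lower and 14 higher; the other comparisons share a line with the rule, whose choice of low FAK KO or high re-expressing values bears on their counts.

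By position, the 92 genes lay on 19 chromosomes, most on chromosome 5 (12 genes, 13.0% of the set against 6.65% of the 10714 genes that passed the 1 FPKM limit) and chromosome 7 (10 genes, 10.9% against 7.41%). Chromosome 15 held 7 genes (7.61% against 4.23%), among them Ptk2, Fmnl3, Krt76, Matn2 and Fam19a5. On that chromosome the median log2 ratio of all eligible genes was 0.39 higher than on the rest for FAK-WT over FAK KO and 0.18 higher for the FAK-R454 ratio, and its part in these genes was not tested. With each chromosome centred on its own median in each sample, 93 genes met the rule, of which 81 were of the 92. The 11 that dropped out were Amz1, Col3a1, Cxcl5, Fmnl3, Gas7, Gm7808, Matn2, Ncam1, Ptger4, Ptk2 and Rtn2. Pairs of members close together included Hsd11b1 with G0s2, Dmpk with Rtn2, separated by 11 protein-coding genes, and Bgn with Plxnb3, separated by 6.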

How the data were processed

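RNA was sequenced from poly(A)-selected libraries, and the authors deposited 1 table with the FPKM and length of each gene. The study's methods name TopHat2 and the submitters' processing notes name CASAVA 1.8, STAR 2.5 and mm10, so the aligner is uncertain. FPKM times gene length gave whole fragments for 100% of values (within 0.01), which shows each library's depth; the FPKM were used as deposited. The set was found by its rule with Python 3.11.15, and its members and the gene lists were chosen with earlier results of these data known. Lines were compared with limma 3.58.1 (R 4.3.3) with trend on log2(FPKM + 0.1), which understates changes of low genes, in the samples of 2 lines and over all genes with a mean above 1 FPKM in either, with Benjamini-Hochberg adjustment over all of these. A call needed adjusted p under 0.05, a log2 change of at least 1 and a mean above 1 FPKM in the higher line. The code was tested on simulated data.

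Named were members of the lists, those with the highest level or largest smaller ratio to FAK KO, the 10 with the largest called change each way per comparison, those nearest the limits and neighbours. Genes outside this rule (Itm2a, Nkain4, Tceal8 and Ifltd1 for their line differences, Fam19a5 for its spread, Rps18-ps3, Gm7808, Col1a2) were named after their values were seen, as were the roles. Alternatives were another pseudocount, level filter, scaling, chromosome centring, limma-voom on recovered fragments, 1 fit of all 5 lines, a replicate block, no fold threshold and leaving out samples. The values of 2 genes of the set are not reported here.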

Additional observations from a re-analysis of the deposited data

How the results depend on the processing

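Under the rule, a pseudocount of 1 left 44 genes, 42 of them among the 92, since small levels in FAK KO then count less. A pseudocount of 0.01 gave 101, reading the 1 FPKM limit after adding 0.1 gave 97, median-of-ratios scaling gave 98 and medians gave 95. Leaving out 1 sample at a time gave 87 to 103. The 103 came without FAK-WT sample 3, when 81 of the 92 still met the rule and Col5a3, Ctgf, Enho, Lox, Matn2, Ncam1, Ptger4, Ptpn13, Rtn2, Slc6a2 and Tln2 did not. In all, 31 of the 92 met the rule under every alternative run. With no fold threshold, 58 genes were higher in KMF than FAK KO, 10 lower in FAK-WT than KMF and 15 lower in FAK-R454 than KMF. Leaving out samples gave 3 to 5 genes lower in FAK-R454 than KMF, with 5 without FAK-R454 sample 1, where the remaining sample is assumed to vary like the others. The 536 alternative values of the 34 log2 changes checked kept their direction and call, but 24 of the 34 moved by over 1.5 times with a pseudocount of 1 and 4 with limma-voom, since the added 0.1 limits the change of genes near 0. In β-catenin ΔGSK against KMF, Cxcl5 was then -2.33 and -7.27 and Vcam1 -3.32 and -6.36, and Col3a1 and Col5a1 were -5.16 and -3.09 with a pseudocount of 1. Cxcr4 against FAK KO was -1.22 and -4.83, and Col5a3 in FAK-R454 against KMF 1.27 and 7.34. Of 172 alternative counts 167 were within 1.5 times the count reported. Samples of the lines share the numbers 1 to 3, but deviations of same-numbered samples correlated between -0.25 and 0.45, not always above 0.1, so the numbers were not taken as pairs. With the number as a replicate block, 40 genes were lower and 14 higher in β-catenin ΔGSK than KMF, 35 higher and 6 lower in KMF than FAK KO, 23 higher and 27 lower in β-catenin ΔGSK than FAK KO, 34 higher and 5 lower in FAK-WT than KMF, and 36 higher and 3 lower in FAK-R454 than KMF. With 2 or 3 samples of 1 line for each construct, differences between lines are those of these lines, and depth limits genes near 1 FPKM most.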

Other observations

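Genes of other types that meet the same numeric limits were counted as well. Of 13249 genes in the table that are not protein-coding, 25 did: 19 pseudogenes, 3 antisense genes and 3 lincRNAs. Of the pseudogenes 4 carry names of ribosomal protein genes (Rpl21-ps11, Rpl18-ps1, Rps6-ps3 and Rpl31-ps11), and reads of the parent genes could be counted on them, so their values are uncertain. Akp-ps1, an alkaline phosphatase pseudogene, was 0.536 FPKM in the knockout, 2.10 with FAK-WT and 1.63 with FAK-R454, against 0.0153 with β-catenin ΔGSK. The protein-coding Alppl2 of the same family, which is among the 92, was 0.775, 1.92, 1.67 and 0.324 FPKM, and fragments could be shared between them. Of the lincRNAs, Gm15767 was 0.468 FPKM in KMF cells and 0.770 in the knockout, then 2.42 with FAK-WT and 2.81 with FAK-R454, and AI662270 was 0.367, 0.463, 1.47 and 1.59. The third, 3300005D01Rik, was 3.23, 1.46, 4.21 and 3.03, and 0.247 in β-catenin ΔGSK cells. The antisense gene Bcas3os2 was 2.07, 3.34, 7.44 and 8.26 FPKM in the same order and 9.44 in β-catenin ΔGSK cells. The library kit was not stated to keep strand, so antisense and sense reads cannot be told apart. These values are means, chosen by the limits and given with no test.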
